A study of Homo sapiens with 9 samples.

Results

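The human genes followed here encode 5 cell-surface proteins, CD44, CD24, NT5E, PROCR and ALCAM, which are used as markers of stem-like mammary cells or, for NT5E, encode CD73. They were chosen by name, by people who knew from earlier results of these same libraries how they stood in CHAF1B knockdown cells relative to control cells. Their differences from control are therefore given as a description, without a test. The 5 genes were matched through their Ensembl identifiers to GENCODE release 29. All 5 were among the 26186 genes of the count table and among the 16235 genes with enough counts to be tested. The libraries came from MCF10A, an established line of human breast epithelial cells that does not form tumours. The cells carried a lentiviral pLKO.1 hairpin and were selected with puromycin at 2 µg/mL from 24 hours after transduction, and RNA was collected at 3 days. The first hairpin against CHAF1B (shCHAF1B-1), the second (shCHAF1B-2) and the control hairpin against green fluorescent protein (shGFP) had 3 libraries each, and every group shared the line, the vector and the selection. The series asked how RNA levels are reprogrammed once CAF-1, a histone chaperone complex that assembles nucleosomes on newly copied DNA and of which CHAF1B is a subunit, is suppressed.

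CD44 is a transmembrane receptor for hyaluronan, a sugar polymer of the extracellular matrix, and CD24 is a small, heavily glycosylated protein held in the membrane by a glycosylphosphatidylinositol (GPI) anchor. A surface profile of high CD44 and low or absent CD24 is widely used to sort stem-like breast cancer cells, and basal breast epithelial lines such as MCF10A are known to carry high CD44. NT5E encodes the GPI-anchored enzyme CD73, which turns extracellular AMP into adenosine. PROCR, the endothelial protein C receptor, marks a population of multipotent stem cells in the mouse mammary gland. ALCAM, or CD166, is an adhesion molecule of the immunoglobulin superfamily that binds itself and CD6. Gene counts cannot separate splice forms, such as the standard and variant forms of CD44, and RNA levels do not report the protein on the surface. In bulk RNA a change in how many cells express a gene cannot be told apart from a change in RNA per cell.

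The promoters of the genes that were higher in all 6 knockdown libraries, NT5E, CD44 and CD24, are printed because these genes differed from control to very different degrees. Each window runs from 250 bases before to 50 bases after a RefSeq start (build GRCh38.p14). Capitals mark matches, on either strand, to GGGCGG (the core of Sp1 sites) or to ACGTG (the core of hypoxia response elements).
NT5E, chr6:85449833-85450132, plus strand: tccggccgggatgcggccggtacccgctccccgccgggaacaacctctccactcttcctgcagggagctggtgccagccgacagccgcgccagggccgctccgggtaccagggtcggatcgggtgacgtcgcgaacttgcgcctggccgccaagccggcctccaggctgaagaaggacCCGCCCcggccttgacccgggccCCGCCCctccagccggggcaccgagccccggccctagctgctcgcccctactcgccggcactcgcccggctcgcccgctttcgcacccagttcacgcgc
CD44, chr11:35138921-35139220, plus strand: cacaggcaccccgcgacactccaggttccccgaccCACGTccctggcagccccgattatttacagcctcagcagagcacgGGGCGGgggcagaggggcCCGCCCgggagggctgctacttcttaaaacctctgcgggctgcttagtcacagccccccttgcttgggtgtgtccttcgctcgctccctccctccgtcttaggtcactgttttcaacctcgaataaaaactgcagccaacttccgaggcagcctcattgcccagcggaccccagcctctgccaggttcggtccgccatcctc
CD24, chr6:106975578-106975877, minus strand: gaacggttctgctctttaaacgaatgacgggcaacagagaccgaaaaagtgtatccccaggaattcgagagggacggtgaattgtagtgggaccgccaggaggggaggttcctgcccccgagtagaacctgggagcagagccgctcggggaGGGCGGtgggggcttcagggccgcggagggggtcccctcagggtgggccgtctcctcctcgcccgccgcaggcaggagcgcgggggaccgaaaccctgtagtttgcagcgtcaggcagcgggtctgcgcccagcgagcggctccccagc
NT5E had the most GC-rich window of the 5 genes, at 75.0% G and C with 37 CpG dinucleotides, against 63.3% and 18 for CD44 and 66.7% and 25 for CD24. PROCR had 61.0% and 9, and ALCAM 70.0% and 26. Over 35116 RefSeq windows of this length the medians were 58.7% and 14. GGGCGG was found 2 times for NT5E, CD44 and PROCR and 1 time for CD24 and ALCAM, and 44.95% of all windows held it. ACGTG was found in CD44 alone (21.4% of all windows), and TATAAA in PROCR alone (11.5%). No window of the 5 held the AP-1 letters TGANTCA (7.71% of all windows), the cyclic AMP response element TGACGTCA (1.85%) or the TEAD letters GGAATG (14.03%). CD24 has 3 RefSeq windows, and the one at the GENCODE start was used. The NT5E and CD44 starts lie 499 and 301 bases inside the GENCODE gene, so the outermost annotated start of each lies outside its window.

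Before the members, the targeted gene was examined. CHAF1B stood at 2.56, 3.88 and 3.43 CPM (counts scaled to the TMM-adjusted library total) with shCHAF1B-1 and at 2.66, 3.89 and 3.07 CPM with shCHAF1B-2, against 35.2, 41.0 and 36.8 CPM with shGFP. Totals ran from 24339914 to 31819468 counts per library. Basal keratin and laminin markers of the line summed to between 16078 and 17651 CPM in the knockdown libraries and between 11676 and 12644 CPM in shGFP, with all 8 listed genes measured. One library stood apart: shCHAF1B-1 replicate 3 held 234 CPM of B lymphocyte markers, summed over the 11 of 12 found in the table, whereas the other knockdown libraries held 3.53 to 4.07 CPM and shGFP 1.90 to 3.68 CPM. B lymphocytes can express CD44, CD24 and NT5E, so values without that library are given for the 5 genes and for the list counts that differ. The endothelial markers, a cell type that expresses PROCR, summed to 20.6 to 23.8 CPM in the knockdown libraries and 6.46 to 7.17 CPM in shGFP. That difference lay mainly in PECAM1 (7.92 to 10.0 CPM in the knockdown libraries, 2.04 to 2.98 CPM in shGFP) and ROBO4 (10.0 to 12.01 CPM and 1.89 to 3.19 CPM). KDR overlapped (1.06 to 1.67 CPM and 1.02 to 1.23 CPM), as did TEK (0.541 to 1.51 CPM and 0.491 to 0.848 CPM). VWF, TIE1 and CLDN5 had 5 counts or fewer in each library, and 7 of 8 listed markers were in the table. The fibroblast markers, 6 of 8 in the table, went both ways. FAP stood at 39.3 to 43.9 CPM in the knockdown libraries and 26.1 to 29.2 CPM in shGFP, and COL1A1 at 12.3 to 15.1 CPM and 7.51 to 7.78 CPM, while DCN stood at 1.38 to 2.16 CPM and 9.17 to 9.72 CPM. Their sum was 54.9 to 58.5 CPM in the knockdown libraries and 43.5 to 46.9 CPM in shGFP, and the part of either list in the results was not tested. The labels do not say that replicates were separate cultures, so their spread may be technical.

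NT5E, on chromosome 6 (ENSG00000135318.11, 85449584 to 85495791, plus strand, hg38), differed most. Its level was 710.3, 707 and 691 CPM with shCHAF1B-1 and 695.3, 675 and 724 CPM with shCHAF1B-2, against 86.7, 86.5 and 91.9 CPM with shGFP. Every knockdown library thus held several times the NT5E RNA of every control library, and the knockdown libraries lay close together. The means were 703 ± 10.3 CPM and 698 ± 24.5 CPM with the hairpins, in that order, and 88.4 ± 3.07 CPM in shGFP (SD, n = 3 each). Relative to shGFP, NT5E was 7.95-fold higher with shCHAF1B-1, a log2 value of 2.99 (SE 0.0490), and 7.90-fold higher with shCHAF1B-2, a log2 value of 2.98 (SE 0.0490). Of the 16235 tested genes, 122 had a larger log2 fold change with shCHAF1B-1 and 91 with shCHAF1B-2. With each library left out in turn, the shCHAF1B-1 value stayed between 2.975 and 3.02 on the log2 scale, and it was 3.01 without the library that held B lymphocyte RNA.

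CD44, on chromosome 11 (ENSG00000026508.18, 35138870 to 35232402, plus strand), was higher in every knockdown library. It stood at 817, 818 and 816 CPM with shCHAF1B-1 and 812, 805 and 819 CPM with shCHAF1B-2, against 451, 453 and 468 CPM with shGFP. The groups did not overlap. Between 11699 and 25530 counts lay behind each value. CD44 was 1.79-fold higher with shCHAF1B-1 (log2 0.84, SE 0.0406) and 1.78-fold higher with shCHAF1B-2 (log2 0.83, SE 0.0406), and the shCHAF1B-1 value was 0.84 without the library that held B lymphocyte RNA. A larger log2 fold change was seen in 1361 tested genes with shCHAF1B-1 and in 1209 with shCHAF1B-2. The SD of CD44 in shCHAF1B-1, 0.121% of the mean, was below the 0.672% that counting error alone would give at this depth.

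CD24, on chromosome 6 (ENSG00000272398.5, 106969831 to 106975627, minus strand), was slightly higher in knockdown cells. The shCHAF1B-1 libraries held 96.0, 94.4 and 98.8 CPM and the shCHAF1B-2 libraries 94.4, 95.2 and 107 CPM, against 85.3, 81.3 and 86.6 CPM in shGFP. All 6 knockdown libraries were above all 3 controls, by a small margin, and shCHAF1B-2 replicate 3 was the highest. The log2 difference of CD24 from shGFP was 0.19 with shCHAF1B-1 (SE 0.0546), or 0.175 without the library that held B lymphocyte RNA. With shCHAF1B-2 it was 0.23 (SE 0.0547), or 0.168 without shCHAF1B-2 replicate 3 and 0.259 without shCHAF1B-2 replicate 2. A larger size of log2 fold change, in either direction, was found for 65.7% of the tested genes with shCHAF1B-1 and for 58.7% with shCHAF1B-2. With totals as the only scaling, the log2 difference was smaller, at 0.103 with shCHAF1B-1 and 0.15 with shCHAF1B-2, and the groups still did not overlap (92.5 to 105 CPM in the knockdown libraries, 83.6 to 89.8 CPM in shGFP). CD24 has processed pseudogenes with near-identical sequence, so reads can be lost or misplaced. The single pseudogene row of the table held 9 counts or fewer in each library, against 2215 or more for CD24.

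PROCR and ALCAM, the mouse mammary stem cell marker and the adhesion molecule, had overlapping groups. PROCR, on chromosome 20 (ENSG00000101000.5, 35172073 to 35216240, plus strand), stood at 61.2, 59.4 and 54.8 CPM with shCHAF1B-1 and 59.0, 57.9 and 65.1 CPM with shCHAF1B-2, against 62.5, 69.4 and 62.1 CPM with shGFP. Its lowest value came from the library with B lymphocyte RNA and its highest from shGFP replicate 2, and the log2 fold changes were -0.15 (SE 0.0636) for shCHAF1B-1, or -0.0989 without that library, and -0.09 (SE 0.0638) for shCHAF1B-2. Single libraries moved these values: without shGFP replicate 2 they were -0.0918 and -0.0386, and the shCHAF1B-2 value was -0.0574 without shCHAF1B-2 replicate 2 and -0.1445 without shCHAF1B-2 replicate 3. On the library total alone, the groups separated, at 53.9 to 63.6 CPM in the knockdown libraries and 64.4 to 71.3 CPM in shGFP, so how PROCR stands relative to control depends on the scaling. Of its exonic bases 12.9% are also exonic in AL356652.1 on the other strand, and the kit does not record strand.

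ALCAM, on chromosome 3 (ENSG00000170017.12, 105366909 to 105576900, plus strand), stood at 228, 246 and 234 CPM with shCHAF1B-1 and 255, 254 and 242 CPM with shCHAF1B-2, against 238, 244 and 253 CPM with shGFP. The 3 groups interleaved. Its log2 difference from shGFP was -0.05 for shCHAF1B-1 (SE 0.0462) and 0.03 for shCHAF1B-2 (SE 0.0463), and the sign for shCHAF1B-2 turned under upper-quartile scaling (-0.00471) and on library totals alone (-0.0487). The shCHAF1B-1 value was -0.0276 without shCHAF1B-1 replicate 1, -0.0839 without replicate 2, -0.0460 without replicate 3 (the library with B lymphocyte RNA) and -0.0302 without shGFP replicate 3. The shCHAF1B-2 value was 0.0084 without shCHAF1B-2 replicate 1, 0.0545 without its replicate 3, 0.0091 without shGFP replicate 1 and 0.0544 without shGFP replicate 3. Between 5601 and 7679 counts lay behind each value.

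Over the 5 genes, 3 had every knockdown library above every shGFP library and 0 had every one below. Among all tested genes 25.8% and 22.7% did so. These counts rest on the contrast in whose knowledge the genes were picked and carry no weight of their own.

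**Figure D1:**
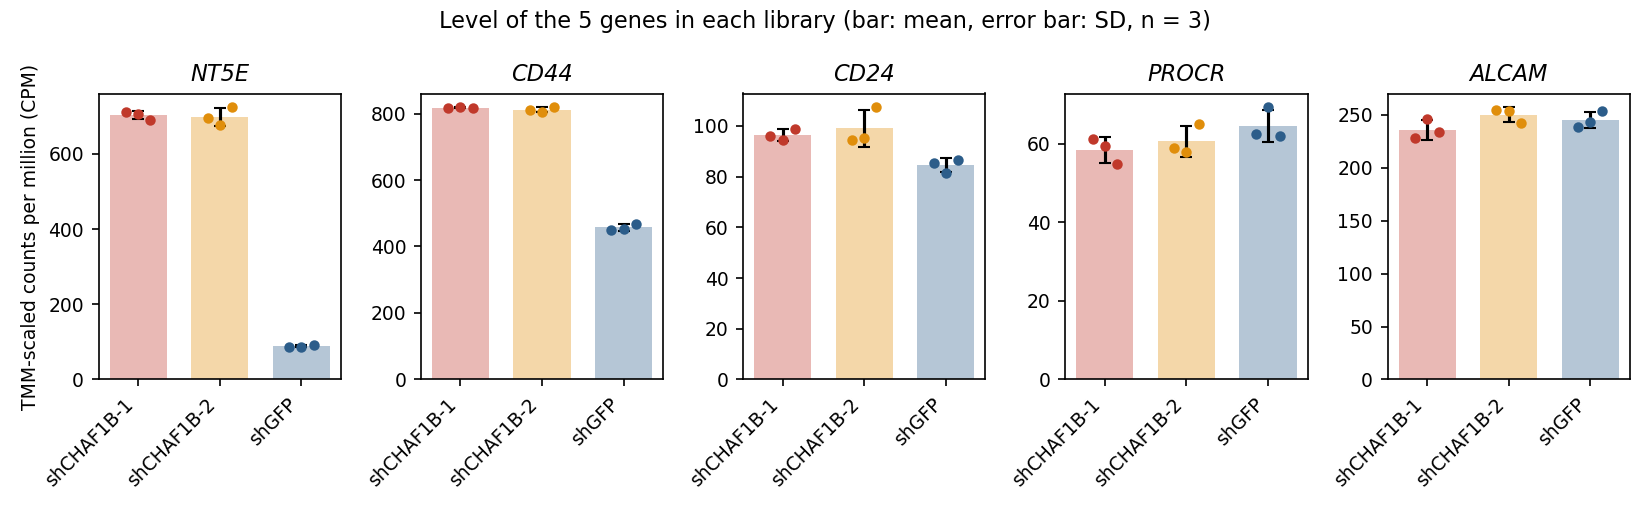
TMM-scaled CPM (vertical axes, linear from 0, a separate scale for each gene) of NT5E, CD44, CD24, PROCR and ALCAM in each library (points); bars give the mean of each group and error bars the SD of its 3 libraries. NT5E and CD44 stand well above shGFP with both hairpins, at 675 to 724 CPM against 86.5 to 91.9 CPM and 805 to 819 CPM against 451 to 468 CPM, while PROCR and ALCAM overlap with shGFP.

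Divided by exonic length, the order of the 5 genes differed between knockdown and control cells. The values here are CPM per kilobase of merged exons, mean ± SD over 3 libraries. With shCHAF1B-1 the order was NT5E (155 ± 2.27), CD44 (81.7 ± 0.0991), PROCR (34.5 ± 1.95), ALCAM (32.9 ± 1.31) and CD24 (31.1 ± 0.718). With shCHAF1B-2 it was the same, at 154 ± 5.41, 81.2 ± 0.702, 35.8 ± 2.29, 34.9 ± 0.977 and 32.0 ± 2.36. In shGFP it was CD44 (45.7 ± 0.964), PROCR (38.1 ± 2.41), ALCAM (34.1 ± 1.07), CD24 (27.3 ± 0.886) and NT5E (19.5 ± 0.678). NT5E thus held the first place in both knockdown groups and the last in the control. Neighbouring ranks did not overlap in shGFP, whereas in both knockdown groups PROCR overlapped with ALCAM and ALCAM with CD24. PROCR and CD24 overlapped with shCHAF1B-2 but not with shCHAF1B-1, where the lowest PROCR value was 32.3 and the highest CD24 value 31.9. With the longest coding transcript as the length, PROCR and ALCAM traded places in each group. By this level NT5E exceeded 98.7% of 12699 tested protein-coding genes in either knockdown group and 81.3% in shGFP, and CD44 96.8% and 96.6% with the hairpins against 93.2% in shGFP.

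**Figure D2:**
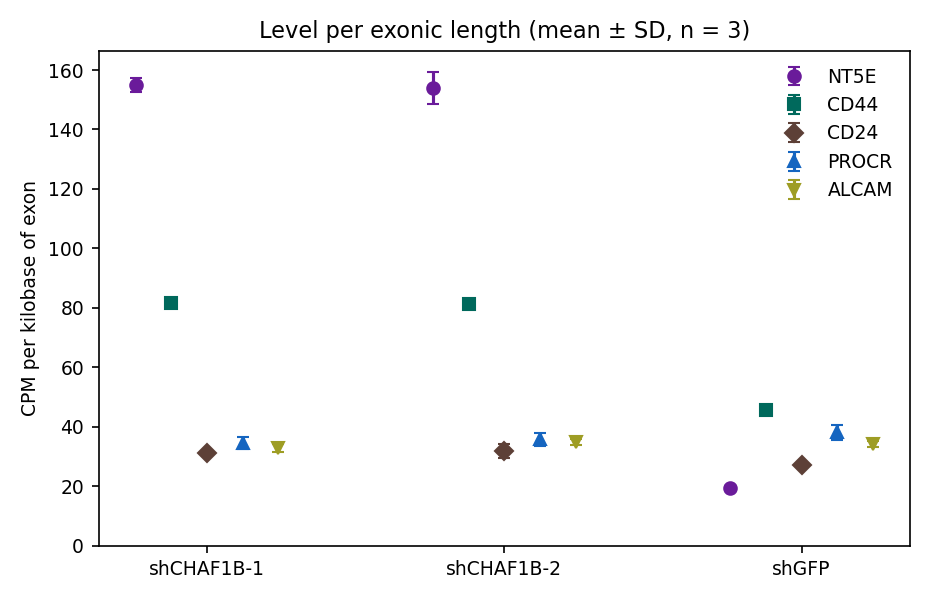
CPM per kilobase of exon (vertical axis, linear from 0) for the 5 genes in shCHAF1B-1, shCHAF1B-2 and shGFP, as mean and SD (n = 3). NT5E is highest in both knockdown groups, at 155 and 154, and lowest in shGFP, at 19.5.

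The CD44 to CD24 ratio within a library needs no scaling between libraries. The ratio of counts was 8.51, 8.67 and 8.27 with shCHAF1B-1 and 8.60, 8.46 and 7.63 with shCHAF1B-2, against 5.28, 5.57 and 5.41 with shGFP. Every knockdown library was above every control, and the lowest knockdown ratio, in shCHAF1B-2 replicate 3, came with the highest CD24 value. The means were 8.48 ± 0.204 with shCHAF1B-1, 8.23 ± 0.526 with shCHAF1B-2 and 5.42 ± 0.144 with shGFP (SD, n = 3 each), or 2.63, 2.55 and 1.68 per exonic length. On the log2 scale the ratio was 0.65 (SE 0.0299) higher with shCHAF1B-1 and 0.60 (SE 0.0585) higher with shCHAF1B-2 than with shGFP, a 1.57-fold and a 1.52-fold difference. The higher ratio came with more CD44 RNA and not with less CD24 RNA, since both genes were higher in the knockdown libraries. Without the library that held B lymphocyte RNA the shCHAF1B-1 difference was 0.67 (log2).

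Between the hairpins, a comparison the choice of genes did not use, the ratio differed by -0.05 on the log2 scale, shCHAF1B-2 minus shCHAF1B-1 (SE 0.0578). The two-sided exact permutation test gave p = 0.60, and 3 against 3 libraries cannot go below 0.10. Without shCHAF1B-2 replicate 3 the sign turned, at 0.0081. The difference was thus within the spread between libraries.

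**Figure D3:**
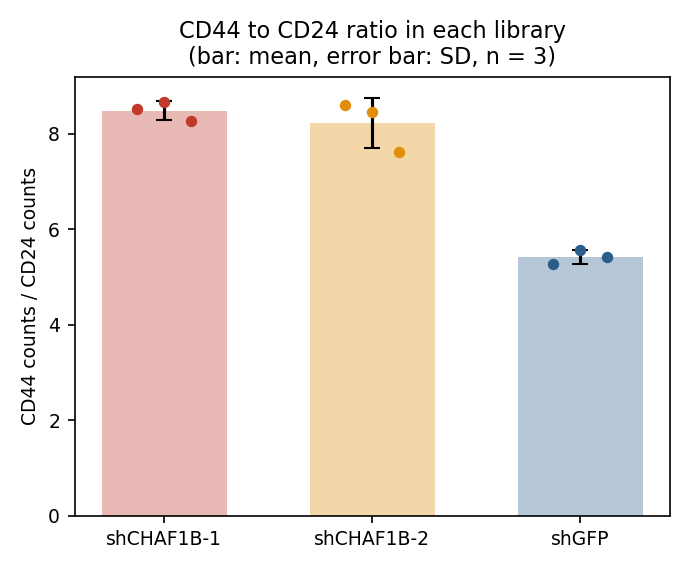
CD44 counts divided by CD24 counts (vertical axis, linear from 0) in each library (points); bars give the mean of each group and error bars the SD of its 3 libraries. The 6 knockdown libraries lie between 7.63 and 8.67 and the shGFP libraries between 5.28 and 5.57.

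The other ratios below are of counts, not per length. The CD44 to NT5E ratio was 1.13 to 1.19 in the 6 knockdown libraries and 5.10 to 5.24 in shGFP. The NT5E to CD24 ratio was 6.996 to 7.49 with shCHAF1B-1 and 6.74 to 7.37 with shCHAF1B-2, against 1.02 to 1.06 with shGFP. The ratio of ALCAM to PROCR, 3.72 to 4.38 in the knockdown libraries and 3.51 to 4.08 in shGFP, overlapped.

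Each gene was then tested for a difference between the hairpins, with edgeR's quasi-likelihood test and Benjamini-Hochberg adjustment over all tested genes. None of the 5 passed, and 0% of the 16235 genes did. An unadjusted p under 0.05 was seen in 1800 genes and in 0 of the 5, and the DESeq2 Wald test and limma-voom also passed 0 genes. For shCHAF1B-2 minus shCHAF1B-1, the log2 difference was -0.01 for CD44 (95% interval -0.10 to 0.08, edgeR adjusted p = 0.943) and -0.01 for NT5E (-0.11 to 0.09, adjusted p = 0.949). It was 0.04 for CD24 (-0.08 to 0.16, edgeR adjusted p = 0.798) and 0.05 for PROCR (-0.09 to 0.19, adjusted p = 0.761). ALCAM had the lowest p, at 0.08 (-0.02 to 0.18, edgeR adjusted p = 0.496). Over the 5 genes the intervals reached from 0.929-fold (NT5E) to 1.14-fold (PROCR). A p that misses the threshold does not show that the hairpins act alike.

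Genes related to the 5 by pathway, binding, splicing, protein family, membrane anchor or use as a marker were listed. The listing was also done with earlier results known, and the listed genes were tested against shGFP over all genes. A listed gene was counted as risen or fallen where it passed an adjusted p of 0.05 with the same sign with both hairpins (edgeR quasi-likelihood test). Of all tested genes 23.8% rose and 20.8% fell by that rule, with median log2 fold changes near 0 (-0.00253 with shCHAF1B-1 and -0.0138 with shCHAF1B-2). Both comparisons share the shGFP libraries, so a shift of the controls would enter each. Of 134 listed genes tested, 56 rose and 33 fell, or 57 and 31 without the library that held B lymphocyte RNA.

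Other surface markers used for mammary stem and progenitor cells were mostly higher. Of 17 tested of 24 listed, 10 rose and 2 fell (3 fell without the library that held B lymphocyte RNA), with medians of 0.72 and 0.48 on the log2 scale for shCHAF1B-1 and shCHAF1B-2. MCAM, or CD146, an adhesion molecule of endothelial and mesenchymal cells, rose by 2.39 (SE 0.0802) and 2.38 (SE 0.0806), to 40.4 and 40.1 CPM against 7.70 CPM in shGFP. ITGA2, a collagen-binding integrin chain, rose by 1.63 and 1.62, CDCP1, a transmembrane substrate of Src kinases, by 1.35 and 1.27, and the tetraspanin CD9 by 1.07 and 1.10. The sorting markers of basal mammary cells, the integrin chains ITGA6 and ITGB1, rose by 0.20 and 0.22 and by 0.72 and 0.71. The genes that fell were EPCAM, the epithelial adhesion molecule that is sorted together with CD49f or CD44 (-0.34 and -0.23), and CD55, a GPI-anchored complement regulator (-0.37 and -0.26). PROM1 (CD133), THY1 (CD90) and LGR5 had 4, 8 and 2 counts over the 3 shGFP libraries and were not tested. CXCR4 passed with shCHAF1B-1 alone, and 9.74 CPM of it lay in the library with B lymphocyte RNA, where the other 8 libraries held 0.314 to 0.883 CPM. ENG, or CD105, which with CD73 and CD90 defines mesenchymal stromal cells, did not pass (-0.0037 and -0.12).

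Around NT5E, the genes of extracellular adenosine went both ways: of 11 tested of 20 listed, 4 rose and 5 fell, with medians of -0.03 and -0.16. Upstream of CD73, ENTPD1 (CD39), which makes AMP from ATP and ADP, fell by 0.98 (SE 0.141) and 1.13 (SE 0.145), to 3.98 and 3.59 CPM against 7.84 CPM. ENTPD2, a related ecto-nucleotidase that prefers ATP, rose by 0.41 and 0.26, to 46.3 and 41.8 CPM against 34.98 CPM. ENPP1, which releases AMP from ATP, fell by 0.66 and 0.63, while the ATP-release channel PANX1 rose by 0.89 (SE 0.0444) and 0.88 (SE 0.0446). Downstream of CD73, the receptors ADORA1 and ADORA2B rose, by 1.92 (SE 0.143) and 2.02 (SE 0.143) and by 0.27 and 0.32. ADORA1 reached 7.13 and 7.63 CPM against 1.87 CPM. The nucleoside transporters SLC29A1 (-0.22 and -0.29) and SLC29A2 (-0.41 and -0.47) and ADA, which deaminates adenosine (-0.21 and -0.30), fell. CD38, another ecto-enzyme, was at 12.7 CPM in the library with B lymphocyte RNA and at most 0.166 CPM in any other.

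Around CD44, 7 genes of hyaluronan turnover and CD44 partners rose and 5 fell of 16 tested (24 listed; medians 0.11 and 0.10), and 8 rose without the library that held B lymphocyte RNA. CEMIP, a hyaluronan-binding protein needed for hyaluronan breakdown, rose by 3.34 (SE 0.135) and 3.25 (SE 0.137), to 16.1 and 15.2 CPM against 1.60 CPM. The surface proteases ADAM17 and MMP14, which can shed CD44, rose by 0.51 and 0.53 and by 0.72 and 0.61, while ADAM10, which sheds it too, fell by 0.31 and 0.20. The linkers of the CD44 tail to actin EZR, MSN and RDX rose, by 0.39 and 0.32, by 0.33 and 0.28 and by 0.14 and 0.29. NF2, listed with them, fell (-0.37 and -0.41). HMMR, a hyaluronan receptor that is also a mitotic spindle protein, fell by 0.86 (SE 0.0547) and 0.66 (SE 0.0545). STAB2, another hyaluronan receptor, had 11 counts over the shCHAF1B-1 libraries, 13 over shCHAF1B-2 and 15 over shGFP and was not tested. Of the hyaluronan synthases HAS3 did not pass with both hairpins (0.19 and 0.21), and HAS1 and HAS2 had 6 and 2 counts over the shGFP libraries. CD74, a partner of CD44 that B lymphocytes express strongly, had 2420 counts over the shCHAF1B-1 libraries, 14 over shCHAF1B-2 and 25 over shGFP and was not tested.

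Of 13 splicing regulators known to act on the variable exons of CD44, 1 rose and 6 fell (medians -0.12 and -0.14). HNRNPA1 fell by 0.53 and 0.51, SRSF1 by 0.40 and 0.30 and TRA2B by 0.34 and 0.27, while the helicase DDX5 rose by 0.35 and 0.32. Without shCHAF1B-2 replicate 3, 2 of these genes rose. ESRP1 and ESRP2, the epithelial regulators that promote variant CD44, did not pass with both hairpins, at 0.08 and 0.15 and at -0.07 and -0.14. HNRNPA1 has near-identical pseudogenes, and its counts are uncertain.

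PROCR itself was not higher, but most genes around it were: of 12 tested of 15 listed, 10 rose and 0 fell (medians 0.73 and 0.74). THBD, or thrombomodulin, which activates protein C together with PROCR, rose by 0.96 (SE 0.0766) and 0.99 (SE 0.0768), to 86.8 and 88.5 CPM against 44.6 CPM. F3, tissue factor, rose by 1.25 (SE 0.0430) and 1.14 (SE 0.0430), to 560 and 519 CPM against 236 CPM, and its inhibitors TFPI and TFPI2 by 0.39 and 0.51 and by 2.99 and 3.43. TFPI2 had 12 counts over the shGFP libraries. The thrombin receptor F2R, through which activated protein C signals when bound to PROCR, rose by 1.01 and 0.97, and AXL, a receptor of the protein S relative GAS6, by 1.34 and 1.29. PROS1, which encodes protein S, did not pass (-0.04 and 0.08), and PROC, which encodes protein C, had 2 counts over the shGFP libraries. The endothelial markers PECAM1 and ROBO4, with the values given above, were higher in the knockdown libraries as well. KDR and TEK overlapped with shGFP, and VWF, TIE1 and CLDN5 had 5 counts or fewer in each library. What part these markers have in the results was not tested.

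ALCAM differed little while related adhesion molecules rose: of 15 tested of 17 listed, 10 rose and 0 fell (medians 0.38 and 0.37). L1CAM, NRCAM and ICAM1, immunoglobulin-type adhesion molecules of nerve or inflamed tissue, rose by 1.56 and 1.41, by 1.72 and 1.61 and by 1.52 and 1.38. CXADR, the coxsackievirus receptor of tight junctions, rose by 0.65 and 0.81. LGALS8, a galectin that binds ALCAM, did not pass (0.05 and -0.02). Of 3 genes listed around CD24 and its binding to P-selectin, SELPLG alone was tested. It encodes PSGL-1, which like CD24 is a ligand of P-selectin, and it rose by 2.16 and 1.93, to 3.49 and 2.97 CPM against 0.771 CPM.

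CD24 and NT5E share the GPI anchor, and the lists around it were also drawn up with earlier results known. Of 24 other GPI-anchored proteins tested of 29 listed, 13 rose and 4 fell (medians 0.46 and 0.50). TFPI is counted here and in the protein C list, whereas the GPI-anchored CD55, which fell, is counted with the stem cell markers only. LYPD3, known from keratinocytes, rose by 1.80 and 1.67, PLAUR, the urokinase receptor, by 1.03 and 0.93, CD59, an inhibitor of complement, by 0.92 and 0.97 and PRNP, the prion protein, by 0.87 and 0.94. CD59 and PRNP reached 480.0 and 441 CPM with shCHAF1B-1, against 254 and 241 CPM in shGFP. GPC4 (-0.24 and -0.28), PSCA (-0.16 and -0.16), BST2 (-0.23 and -0.18) and EFNA5 (-0.25 and -0.22) fell. That count of 4 was 2 with DESeq2, with no filter or without shCHAF1B-1 replicate 2, 1 without shCHAF1B-1 replicate 3, shCHAF1B-2 replicate 1, shCHAF1B-2 replicate 2 or shGFP replicate 1, and 0 without shGFP replicate 2. CD14, also a myeloid marker, rose by 0.88 and 0.84; of the other myeloid markers CSF1R overlapped, at 16.5 to 19.4 CPM in the knockdown libraries and 15.8 to 17.5 CPM in shGFP, ITGAM was at 1.22 CPM or less in each library, and MRC1 and FCGR1A had 4 counts or fewer. Of the genes that build and attach the anchor, 26 of 27 listed were tested, and 1 rose, 11 fell and 14 passed in neither direction (medians -0.25 and -0.22). PGAP2, which remodels the lipid of the anchor, fell by 0.76 (SE 0.0689) and 0.79 (SE 0.0695), DPM2, a subunit of the mannose donor enzyme, by 0.51 and 0.48, and PIGK, a subunit of the transamidase that attaches the anchor, by 0.55 and 0.43. PIGG, which modifies the anchor, was the gene that rose (0.13 and 0.17); it passed no longer without shCHAF1B-1 replicate 1 or 2, without shGFP replicate 1 or 3, or under upper-quartile scaling.

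**Figure D4:**
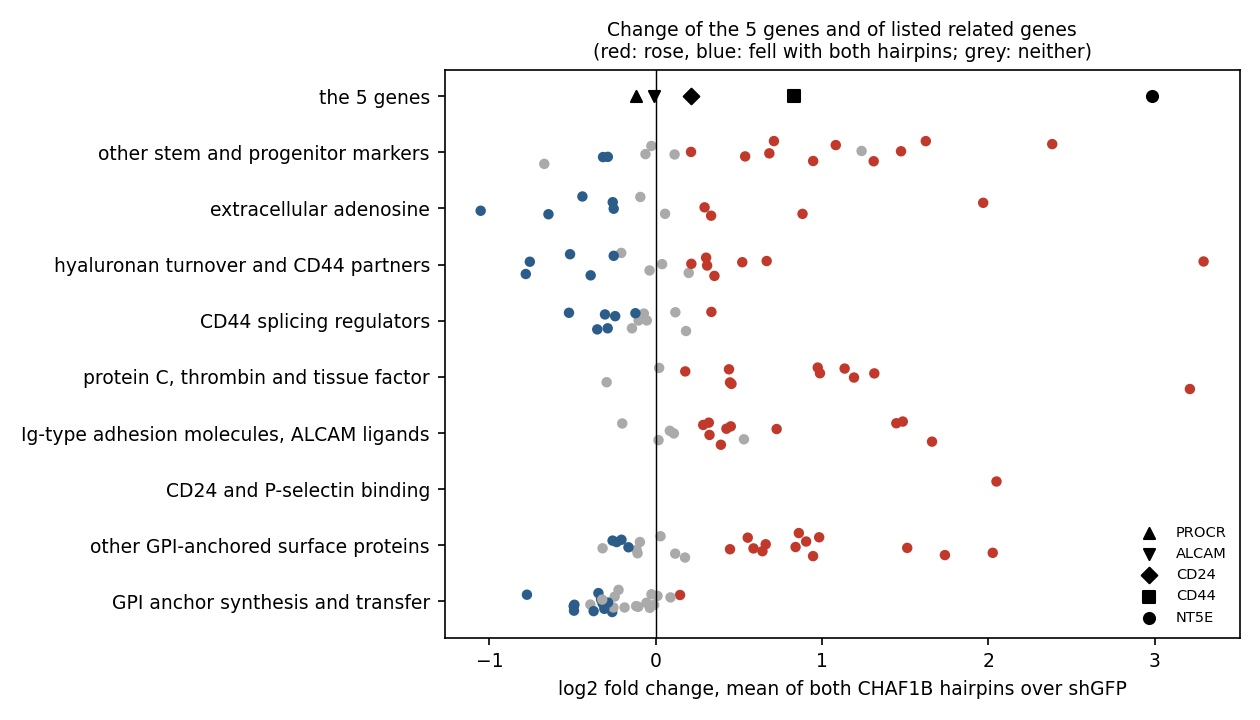
Log2 fold change of the mean of both CHAF1B hairpins over shGFP (horizontal axis) for NT5E, CD44, CD24, PROCR and ALCAM (black symbols) and for each tested gene of 9 lists of related genes (rows; vertical scatter within a row has no meaning). Red genes rose and blue genes fell with both hairpins at an adjusted p under 0.05, and grey genes did neither; NT5E lies at 2.99, CEMIP of the hyaluronan list at 3.29 and TFPI2 of the protein C list at 3.21.

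The nearest tested protein-coding genes on each side of the 5 were read by position. SNX14, a sorting nexin 9.71 kb from NT5E on chromosome 6, rose by 0.50 (SE 0.0447) and 0.63 (SE 0.0447), to 110.5 and 121 CPM against 77.9 CPM. CEP162, 1222 kb on the other side, was at -0.28 and -0.19 and did not pass with both hairpins. Next to CD44, PDHX rose by 0.14 and 0.18 and FJX1 was at -0.25 and -0.54, passing with shCHAF1B-2 alone. Next to CD24, C6orf203 fell by 0.51 and 0.34 and QRSL1 did not pass (-0.13 and -0.06). EDEM2 beside PROCR fell by 0.44 and 0.33, EIF6 on its other side was at 0.18 and 0.12, CBLB beside ALCAM rose by 0.73 and 0.63, and NFKBIZ, 3506 kb away, did not pass (-0.19 and -0.25). Of these 10 neighbours 3 rose and 2 fell, beside 23.8% and 20.8% of all tested genes.

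The genes most like each of the 5 were found by Pearson's r of log2 CPM over the 9 libraries, among 11762 protein-coding genes with a mean of at least 1 CPM. The libraries fall into knockdown and control, so for NT5E and CD44 the coefficient mainly follows that split, and for the other genes it can do so. The matches are also the closest of 11762 genes over only 9 libraries, so r is given without a p. NT5E was most like DCBLD2, a transmembrane receptor-like protein (r = 0.9999), which stood at 1127 and 1117 CPM in the knockdown groups and 206 CPM in shGFP, then like DEPP1 and CD44 (both r = 0.9998). CD44 was most like DEPP1, NT5E and DCBLD2 (r = 0.9998, 0.9998 and 0.9995). Each of NT5E and CD44 was thus among the 3 closest genes of the other. CD24 was closest to VIRMA, a subunit of the RNA methylation complex (r = 0.976), CFAP58 (0.973) and VHL (0.972), PROCR to PMVK, an enzyme of cholesterol synthesis (0.985), PEBP1 (0.979) and SMIM27 (0.976), and ALCAM to PLS1 (0.961), RBBP5 (0.947) and SETD7 (0.924).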

How the data were processed

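Polyadenylated RNA of 9 MCF10A libraries was measured. The authors deposited raw counts per gene, not normalized. Tools listed in the submitters' processing notes, without roles, are DESeq2 1.18.1, HTSeq 0.8.0 and STAR 2.5.3a, and the builds listed are mm10 and hg38; the gene identifiers are human. Per the labels' protocols the kit was TruSeq RNA version 2, which keeps no strand. Of 26186 identifiers 26149 matched GENCODE release 29.

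Groups followed the hairpin in the labels. Counts were filtered with filterByExpr (minimum count 10, total 15, proportion 0.7), scaled with TMM and tested by quasi-likelihood in edgeR 4.0.16 (R 4.3.3), all 9 libraries together and group as sole term, with Benjamini-Hochberg adjustment and a threshold of 0.05. CPM uses TMM-scaled library sizes. Library pairs within groups differed by more than counting noise, so each counted as 1 replicate. Alternatives used DESeq2 1.42.0 and limma 3.58.1, SciPy 1.17.1 the permutation test; the fit was tested on simulated data. The 5 genes, the lists and the rules were chosen with earlier results of these data known. Genes named from a list were up to 4 with the smallest adjusted p in the mean of both hairpins among those passing with both, plus genes that explain a small count or a role; nearest neighbours and the 3 most similar genes followed fixed rules.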

Additional observations from a re-analysis of the deposited data

How the results depend on the processing

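The log2 fold changes of the 5 genes kept their direction under every scaling, test, filter and library left out, except ALCAM with shCHAF1B-2, which turned to -0.00471 under upper-quartile scaling and to -0.0487 on library totals alone, a scaling chosen after seeing the data. Upper-quartile scaling moved CD44 to 0.81 and 0.793 for shCHAF1B-1 and shCHAF1B-2. Library totals alone moved CD44 to 0.75 and 0.749, NT5E to 2.90 with both, CD24 to 0.103 and 0.15, PROCR to -0.233 and -0.171 and ALCAM to -0.142 with shCHAF1B-1. This scaling drops the TMM factors, which were 0.967 to 0.987 in the knockdown libraries and 1.03 to 1.05 in shGFP, and so lowers the difference from shGFP of all genes alike. The difference of the CD44 to CD24 log2 ratio between hairpins ranged from -0.0787 to 0.0081 with a library left out, the single positive value coming without shCHAF1B-2 replicate 3. Likewise CD24 (-0.0233) and PROCR (-0.000346) between hairpins turned sign without that library and NT5E (0.0144) without shCHAF1B-2 replicate 2; with a library left out these ranged from -0.0233 to 0.0714 for CD24, -0.0359 to 0.0144 for NT5E and -0.000346 to 0.0870 for PROCR. With the longest coding transcript as length, a choice added later, 3 of the 5 genes kept their rank in each group. Counts over all listed genes stayed within 53 to 58 risen and 28 to 34 fallen when a library was left out. GPI-anchored genes that fell numbered 0 to 4 then, and 2 under DESeq2 and with no filter.

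With the replicate number as a block, 56 listed genes rose and 32 fell, NT5E stood at 2.99 and 2.98, and the ratio difference between hairpins at -0.0456; no call among the 5 genes changed. No sign of pairing by number was seen. Deviations of same-numbered libraries correlated at -0.138 to 0.1, and those of differently numbered libraries at -0.217 to 0.22. With 3 libraries per group, this cannot show that the numbers mark no shared origin. Adding CD24 pseudogene rows outside chromosome Y gave no value, since the table lists 0 such rows. Adding the 1 row it lists, a choice made after seeing the data, gave no other direction. A library with RNA of another cell type, and replicates of unstated origin, limit the spread reported.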
